A study of Mus musculus with 4 samples.

Results

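The myosin light chains examined here are 8 genes, *Myl1*, *Myl2*, *Myl3*, *Myl4*, *Myl6*, *Myl7*, *Myl9* and *Mylpf*, taken by gene symbol from the 32286 features of the libraries of days 4 to 6 and the 32287 features of the day 11 library. They were measured by single-cell RNA sequencing (10x Genomics 3′ chemistry, v3.1) in gastruloids, aggregates of mouse embryonic stem cells that form an elongated axis and several embryonic tissues in culture. All cells came from the Zx1 mouse embryonic stem cell line, labelled wild type, and the libraries were made on days 4, 5, 6 and 11 of culture. Each day is 1 library made from a pool of at least 8 gastruloids, so there is no replicate of any day and no test between days. All gastruloids had received a Wnt agonist from day 2 to day 3. Those of day 5 and day 6 were collected while bFGF, VEGF and ascorbic acid were present, and those of day 11 after 4 further days in the base medium that followed day 7. Levels are given as counts of unique molecular identifiers (UMIs) per 1000000 UMIs summed over the cells named (CPM). Since each molecule gives 1 tag at its 3′ end, levels of different genes are compared without a correction for transcript length. Intervals are exact 95% Poisson intervals for levels and exact 95% binomial intervals for shares, and they cover counting error only.

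A myosin II motor consists of heavy chains whose necks each carry an essential and a regulatory light chain. The regulatory chains are substrates of myosin light chain kinases, and each striated or smooth muscle type uses its own combination of isoforms. Among the regulatory chains, *Myl7* is known as the atrial isoform, which is also found throughout the early heart tube, *Myl2* as the ventricular and slow skeletal isoform, *Mylpf* as the fast skeletal isoform and *Myl9* as a smooth muscle and non-muscle isoform. Among the essential chains, *Myl4* is the atrial isoform and is used by embryonic striated muscle generally, *Myl3* is ventricular and slow skeletal, *Myl1* is fast skeletal, and *Myl6* is used by smooth muscle and non-muscle cells.

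After removal of low-quality cells and predicted doublets, 6555, 6457, 5254 and 7850 cells were kept on days 4, 5, 6 and 11, of 7324, 7794, 6628 and 9584 deposited barcodes. The deposited libraries held between 149169498 and 236714826 UMIs, and the kept cells had a median of 24237 to 28154 UMIs at days 4 to 6 and of 11441 UMIs at day 11. Between 5 and 23 barcodes were shared by any 2 libraries.

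The makeup of the family turned over between day 5 and day 6. *Myl6* held 83.4% of the family's UMIs at day 4 and 92.4% at day 5, and then 29.8% at day 6 and 9.74% at day 11 (9.69 to 9.80). *Myl7* held 11.0%, 2.46%, 42.8% and 45.1% on the same days. *Myl4*, the embryonic essential chain, followed with 1.011%, 0.803%, 18.1% and 21.8%. The sum of the 8 genes went from 458 CPM at day 4 to 731 CPM at day 5, 2333 CPM at day 6 and 9178 CPM at day 11. These shares are weighted toward cells rich in light chains. Counted per cell instead, *Myl6* was still the most abundant member in 6015 of 7850 cells at day 11, against 1191 cells led by *Myl7*.

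In level, *Myl6* (ENSMUSG00000090841, chr10:128490860-128494145, minus strand, mm10) was the steadiest member, with 382, 676, 694 and 894 CPM on days 4, 5, 6 and 11. *Myl7* (ENSMUSG00000020469, chr11:5896637-5898782, minus strand) was at 50.3 CPM at day 4 (49.3 to 51.3), 18.0 at day 5 (17.4 to 18.6), 998 at day 6 and 4135 at day 11. It was therefore measurable before the heart genes were abundant, with a lower level at day 5 than at day 4. *Myl4* (ENSMUSG00000061086, chr11:104550663-104595753, plus strand) stood at 4.63, 5.87, 423 and 2001 CPM on the 4 days. *Myl3* (ENSMUSG00000059741, chr9:110741861-110769798, plus strand) stood at 1.38, 2.37, 120.4 and 604 CPM. *Myl2* (ENSMUSG00000013936, chr5:122100951-122113472, plus strand) stood at 0.627, 0.332, 42.7 and 505 CPM. The ventricular chains *Myl2* and *Myl3* were thus both below 3 CPM until day 5 and at 505 and 604 CPM at day 11. *Myl9* (ENSMUSG00000067818, chr2:156775420-156781658, plus strand) was higher on each later day, at 1.42, 9.07, 39.7 and 865 CPM. *Mylpf* (ENSMUSG00000030672, chr7:127208890-127214298, plus strand) had a different course, with 17.3 and 19.8 CPM on days 4 and 5, a lower 7.84 CPM at day 6 and 117 CPM at day 11. *Myl1* (ENSMUSG00000061816, chr1:66924295-66945404, minus strand) was the least abundant member on every day, with 49 UMIs (0.252 CPM) at day 4, 5 UMIs (0.0251 CPM) at day 5, 6.94 CPM at day 6 and 57.2 CPM at day 11. *Myl2*, *Myl3* and *Myl4* overlap genes on the opposite strand, and no strand setting is given in the sources used here.

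**Figure D1:**
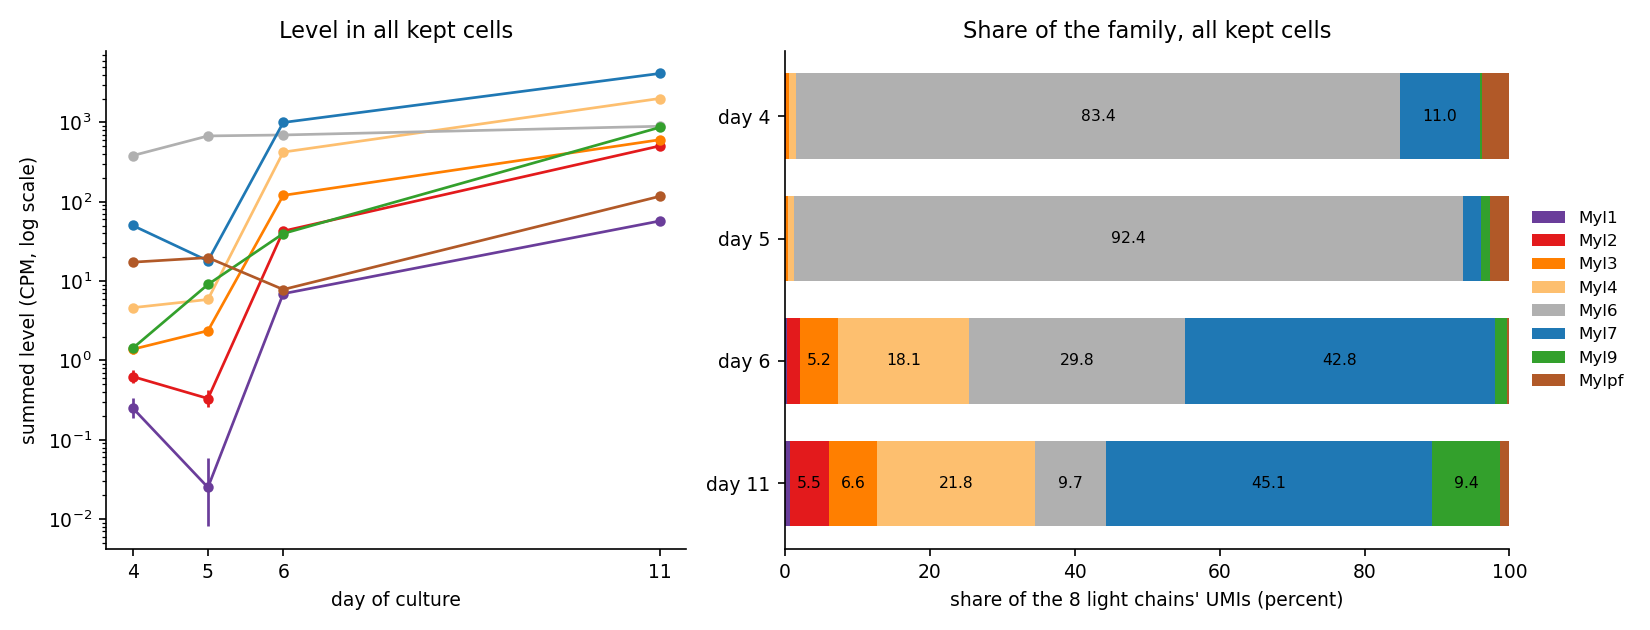
Left, summed level of each light chain in all kept cells (CPM, log scale) against day of culture, with vertical bars for the exact 95% Poisson interval; right, share of the family's UMIs held by each gene (percent) on each day. *Myl6* fills 83.4% and 92.4% of the bars of days 4 and 5, and *Myl7* and *Myl4* together with *Myl9*, *Myl3* and *Myl2* fill most of the bars of days 6 and 11.

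The order of the members by level also differed between days. At day 4 the order was *Myl6*, *Myl7*, *Mylpf*, *Myl4*, *Myl9*, *Myl3*, *Myl2* and *Myl1*, and the intervals of *Myl9* (1.26 to 1.60 CPM) and *Myl3* (1.22 to 1.56 CPM) overlapped. At day 11 it was *Myl7*, *Myl4*, *Myl6*, *Myl9*, *Myl3*, *Myl2*, *Mylpf* and *Myl1*, and no neighbors had overlapping intervals. *Myl6* (889 to 900 CPM) and *Myl9* (859 to 870 CPM) were the closest pair in relative terms.

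Differences of at least 2-fold between successive days, among genes with at least 10 CPM in either library, were counted as a description, since each comparison sets 1 library against another. From day 4 to day 5, 3 members passed the filter on level and 1 was at least 2-fold lower, *Myl7*, by 2.79-fold (2.69 to 2.90). Over all 7894 genes that passed, 12.2% differed by 2-fold in either direction, 7.44% being higher and 4.8% lower. From day 5 to day 6, 7 members passed, 5 were at least 2-fold higher and 1 was lower, beside 12.8% of 8423 genes higher and 4.48% lower. The sarcomeric chains had the larger ratios, 129-fold for *Myl2* (101 to 167), 72.0-fold for *Myl4* (68.0 to 76.4), 55.4-fold for *Myl7* (53.6 to 57.3) and 50.8-fold for *Myl3* (46.3 to 55.7). *Myl9* was 4.38-fold higher (4.15 to 4.62) and *Mylpf* was 2.52-fold lower (2.36 to 2.69). From day 6 to day 11, all 8 members passed and 7 were higher and 0 lower, beside 9.66% of 8826 genes higher and 4.23% lower. *Myl9* had the largest ratio, 21.8-fold (21.2 to 22.4), followed by *Mylpf* with 14.9-fold, *Myl2* with 11.8-fold and *Myl1* with 8.24-fold. *Myl3*, *Myl4* and *Myl7* were 5.02-fold, 4.73-fold and 4.14-fold higher, and *Myl6* was at 1.29-fold. The median log2 ratio of all genes that passed was 0.19 from day 5 to day 6, so those ratios stand against a shifted center.

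The 150 bases before the start of 5 members are shown here. They are the cardiac chains *Myl7* and *Myl3*, the fast skeletal chain *Mylpf*, the smooth muscle chain *Myl9* and the broadly expressed *Myl6*. These 5 were picked by hand. *Myl4* and *Myl1* were left out, although each has a GENCODE start within 100 bases of its RefSeq start. Any link between these sequences and the levels or shared expression of the members was not tested. The sequences are from RefSeq promoter windows (GRCm38.p6), 5′ to 3′ on the gene's strand, and end at the base before the start, taken as the outermost of the RefSeq start and the GENCODE starts within 100 bases of it. For *Myl3* and *Myl9* this is the GENCODE start, 32 and 44 bases before that of RefSeq. Capitals mark matches to 3 motifs, a CArG box (the serum response factor site), an E-box (CANNTG, bound by MyoD family factors among many others) and GGAATG on either strand (the MCAT site of TEAD factors).
Myl7, chr11:5898783-5898932, minus strand: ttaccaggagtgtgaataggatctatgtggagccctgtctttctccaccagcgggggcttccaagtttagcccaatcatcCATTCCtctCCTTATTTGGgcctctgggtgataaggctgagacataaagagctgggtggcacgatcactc
Myl3, chr9:110763496-110763645, plus strand: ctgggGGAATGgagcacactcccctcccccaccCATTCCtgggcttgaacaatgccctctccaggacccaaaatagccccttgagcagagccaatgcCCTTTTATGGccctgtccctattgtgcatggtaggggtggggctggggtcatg
Myl9, chr2:156775270-156775419, plus strand: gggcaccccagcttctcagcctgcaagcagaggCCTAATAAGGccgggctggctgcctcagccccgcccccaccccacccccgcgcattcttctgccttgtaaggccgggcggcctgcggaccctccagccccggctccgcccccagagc
Mylpf, chr7:127211458-127211607, plus strand: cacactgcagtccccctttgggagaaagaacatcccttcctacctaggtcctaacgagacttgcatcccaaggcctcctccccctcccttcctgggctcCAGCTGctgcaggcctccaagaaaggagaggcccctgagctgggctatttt
Myl6, chr10:128493887-128494036, minus strand: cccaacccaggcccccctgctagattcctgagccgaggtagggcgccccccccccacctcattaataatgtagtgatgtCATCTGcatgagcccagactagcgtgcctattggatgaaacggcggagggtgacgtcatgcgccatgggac

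A CArG box stood 61 to 52 bases before the start in *Myl7*, 53 to 44 in *Myl3* and 117 to 108 in *Myl9*. Of all promoter windows this box was in 0.916% of 32851 windows of the same length before RefSeq starts. GGAATG on either strand stood in *Myl7* at 70 to 65 bases and in *Myl3* at 145 to 140 and 117 to 112 bases, against 7.59% of all windows. The E-boxes of *Mylpf* (51 to 46 bases) and *Myl6* (71 to 66 bases) are of a kind held by 47.7% of all windows. A MEF2 box (1.67% of all windows) and AGATAA (5.65%) were matched in none of the 5. These are matches of letters in a short window and not measured binding. The windows of *Mylpf* and *Myl3* lie in introns of longer transcripts of the same gene, and that of *Myl6* overlaps exons of its noncoding transcripts.

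To follow the isoforms by cell type, the kept cells were divided by 3 genes. *Myl7*-high cells held *Myl7* at 2000 CPM or more with no *Myog* UMI, *Myog* positive cells held at least 1 UMI of myogenin, the differentiation factor of skeletal muscle, and *Acta2* positive cells held at least 1 UMI of smooth muscle actin, which embryonic cardiomyocytes also use, and were in neither of the former sets. There were no *Myl7*-high cells at days 4 and 5, with exact intervals up to 0.0563% and 0.0571% of cells, 502 at day 6 and 1304 at day 11. *Myog* positive cells numbered 5, 4 and 3 at days 4 to 6, too few to describe, and 175 at day 11. *Acta2* positive cells numbered 657, 763, 1919 and 1462, and the remaining cells, called other cells here, 5893, 5690, 2830 and 4890. The highest *Myl7* level in any cell was 1646 CPM at day 4 and 989.7 CPM at day 5. At day 6 the cells on either side of the limit were at 2009 and 1989.7 CPM, and at day 11 at 2001 and 1994 CPM. At day 11, 66 cells lay between 1000 and 2000 CPM.

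The sets were checked against markers that include no light chain. Of 12 cardiomyocyte markers, 12 were at least 2-fold higher in day 11 *Myl7*-high cells than in the rest and 11 at day 6. Of 14 skeletal muscle markers, 13 were higher in *Myog* positive cells, where 2 of the 12 cardiomyocyte markers were higher and 6 lower. In *Acta2* positive cells 2 of 8 smooth muscle markers were at least 2-fold higher and 3 lower at day 11, 1 was higher and 1 lower at day 6, 1 was higher at day 5, and 0 differed at day 4. The same list had 4 higher and 1 lower in day 11 *Myl7*-high cells. In *Acta2* positive cells *Myh11*, the smooth muscle heavy chain, was at 2.32 CPM at day 11. The *Acta2* positive set is therefore called by its rule and not by a cell type. At day 11, 19 cells were both *Myl7*-high and *Myog* positive and were kept apart. Their light chains were 45.3% *Myl7*, 22.7% *Myl4* and 0.0150% *Mylpf*.

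Most light chain UMIs at day 11 came from the *Myl7*-high cells. These cells held 94.9% of the *Myl9* UMIs, 94.0% of *Myl4*, 92.6% of *Myl3* and 92.5% of *Myl2*, with 23.2% of all UMIs of the day. They held 44.3% of *Myl6*, 35.6% of *Myl1* and 2.24% of *Mylpf*. *Myog* positive cells, with 3.44% of all UMIs, held 94.3% of *Mylpf* and 62.7% of *Myl1*. The 2 fast skeletal chains thus differed, since about 1 in 3 *Myl1* molecules came from *Myl7*-high cells.

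**Figure D2:**
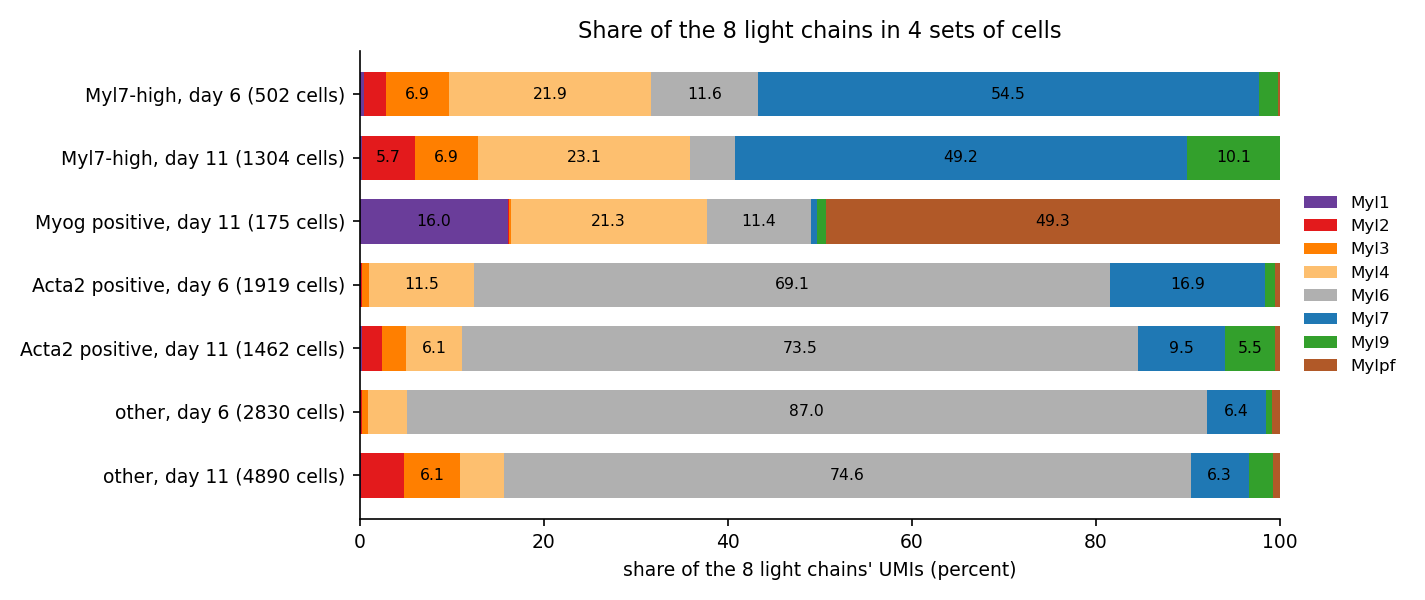
Share of the 8 light chains' UMIs (percent) held by each gene, with 1 bar for each set of cells and day and the number of cells in brackets. *Myl7* and *Myl4* lead in *Myl7*-high cells, *Mylpf*, *Myl4* and *Myl1* in *Myog* positive cells (49.3%, 21.3% and 16.0%), and *Myl6* in *Acta2* positive and other cells of days 6 and 11, at 69.1% to 87.0%.

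In *Myl7*-high cells the family went from 19423 CPM at day 6 to 35084 CPM at day 11. *Myl7*, which defines the set, held 54.5% and 49.2% of it. *Myl4* was at 4263 CPM (21.9%) at day 6 and 8093 CPM (23.1%) at day 11, and it was found in 98.6% and 99.7% of the cells. *Myl9* had 391 CPM (380 to 402) and 2.01% of the family at day 6, and 3528 CPM (3505 to 3551) and 10.1% at day 11. *Myl2* went from 476 CPM (2.45%) to 2008 CPM (5.72%), and *Myl3* from 1337 CPM (6.88%) to 2406 CPM (6.86%). Against these, *Myl6* had 2246 CPM (2221 to 2272) at day 6 and 1705 CPM (1690 to 1721) at day 11, with a share of 11.6% and then 4.86%. The fast skeletal chains were minor, with *Myl1* at 75.9 and 87.5 CPM and *Mylpf* at 41.0 CPM (37.6 to 44.6) and 11.2 CPM (10.0 to 12.6).

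Set against the other cells of day 11, all 8 members passed the filter on level and 7 were at least 2-fold higher in *Myl7*-high cells, beside 11.9% of 9094 genes higher and 19.9% lower. The ratio of *Myl7* was fixed by the rule. *Myl4* was 205-fold higher (197 to 213), *Myl9* 159.99-fold (152 to 168.9), *Myl1* 126-fold (93.4 to 175), *Myl2* 51.4-fold (49.4 to 53.6), *Myl3* 48.1-fold (46.4 to 49.9) and *Myl6* 2.77-fold (2.74 to 2.81). *Mylpf* was at 1.93-fold (1.65 to 2.26). The ratios of *Myl2* and *Myl3* depend on 22 *Myl2*-rich cells in the other set, described further on, without which they were 244-fold (224 to 267) and 219-fold (203 to 237). As those cells were picked by their *Myl2*, leaving them out raises these ratios by construction. The median log2 ratio of all genes was −0.30 here, and scaling by median-of-ratios size factors put *Mylpf* at 2.38-fold and 8 of 8 members over 2-fold. *Myl9* is named for smooth muscle, and at day 11 its level was 3528 CPM in *Myl7*-high cells against 51.6 CPM in *Acta2* positive cells. At day 6 the ratio of *Myl9* between *Myl7*-high and other cells was 103-fold (92.1 to 116) and that of *Myl3* was 393-fold (348 to 444).

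The *Myl7*-high cells did not share 1 mix of isoforms. For each cell, *Myl2* was expressed as a percentage of *Myl2* and *Myl7*, and *Myl3* as a percentage of *Myl3* and *Myl4*, the ventricular member of each pair over both. *Myl2* was under 1% in 413 of 502 cells at day 6 (82.3%, 78.6 to 85.5) and in 830 of 1304 at day 11 (63.7%, 61.0 to 66.3). It reached 50% or more in 0 cells at day 6 and in 126 cells at day 11 (9.66%, 8.11 to 11.4). *Myl3* reached 50% or more in 22 of 496 cells at day 6 (4.44%, 2.80 to 6.64) and in 198 of 1302 cells at day 11 (15.2%, 13.3 to 17.3). Cells with little *Myl2* therefore made up most of the set on both days, with a minority at 50% or more *Myl2* at day 11 whose share at day 6 had an exact interval up to 0.732%. Across cells, both percentages had a Pearson correlation of 0.489 over 496 cells at day 6 and 0.806 over 1302 cells at day 11, given as a description because the cells share a library.

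**Figure D3:**
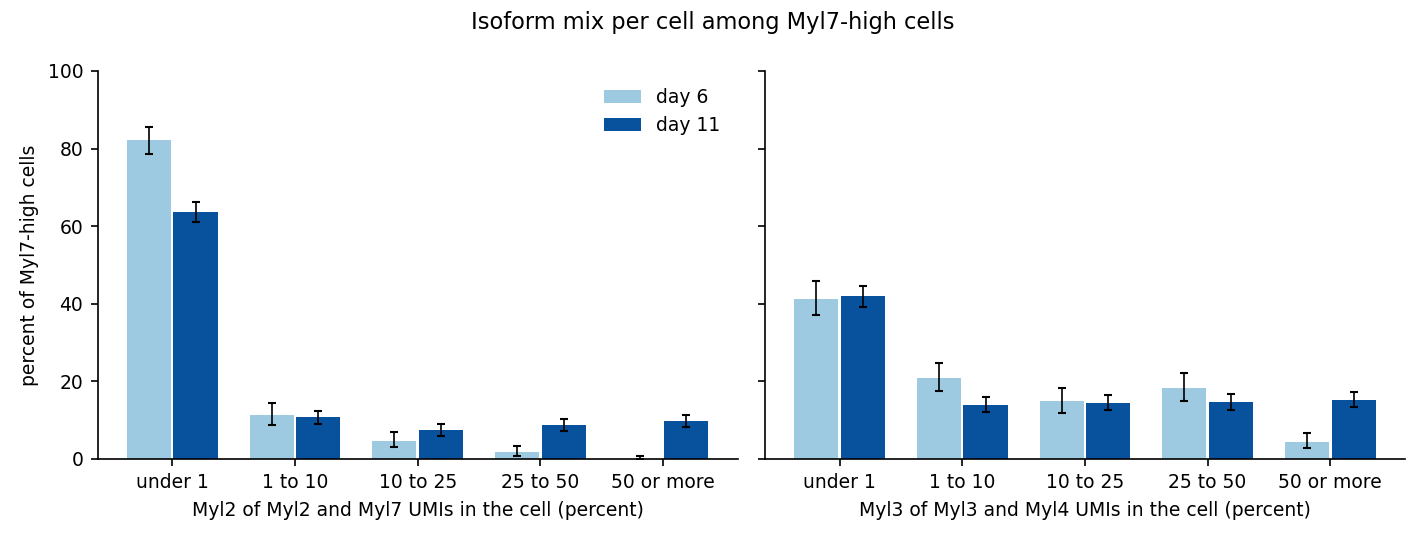
Percent of *Myl7*-high cells by the percentage of *Myl2* among *Myl2* and *Myl7* UMIs of the cell (left) and of *Myl3* among *Myl3* and *Myl4* UMIs (right), for day 6 (light) and day 11 (dark), with exact 95% binomial intervals. The 50% or more bins hold 0 and 9.66% of cells for *Myl2* and 4.44% and 15.2% for *Myl3*.

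Dividing the day 11 *Myl7*-high cells by this mix showed what else differed. The 335 cells with *Myl2* at 10% or more held 6659.9 CPM of *Myl2* and 6147 CPM of *Myl3*, against 19.4 and 730.5 CPM in the 830 cells under 1%. The difference in *Myl2* itself follows from the rule. *Myh7*, the ventricular and slow heavy chain, was at 2803 against 235 CPM. *Pln*, the phospholamban gene, was at 1113 against 147 CPM. *Shox2*, a transcription factor of the sinus venosus and pacemaker region, was at 68.5 against 447 CPM, and *Acta2* at 404 against 2907 CPM. *Myl9* was 2521 CPM in the *Myl2*-rich cells and 3894 CPM in the *Myl2*-poor cells, *Myl4* 6296 against 8674 CPM and *Myl6* 1161 against 2005 CPM. *Tnnt2*, cardiac troponin T, was similar in both at 6878 and 6083 CPM. At day 6 the 32 cells with *Myl2* at 10% or more held *Acta2* at 4929 CPM against 3927 CPM in the 413 cells under 1%, so the order for *Acta2* was the reverse of day 11. *Myh7* had the same order at day 6, with 1453 against 374 CPM, and *Shox2* had 22.4 against 132 CPM.

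The *Myl2* share was also taken over cells divided by single genes, of which *Shox2*, *Mki67* and *Top2a* were chosen with values of these data known, so that these values are a description only. In 747 cells with a *Shox2* UMI, *Myl2* held 1.91% and *Myl3* 2.78% of the family, and in 557 cells without, 12.4% and 14.0%. Cells with an *Acta2* UMI (917) had 4.13% *Myl2*, and cells without (387) had 11.7%. *Nppa*, the atrial natriuretic peptide gene, was found in 186 cells, where *Myl2* held 3.67% against 6.37% in the 1118 others. Median depths were 18279 and 16344 UMIs for the cells with and without *Shox2* and 23369 and 16782 UMIs for the cells with and without *Nppa*. Cells with a UMI of the proliferation genes *Mki67* or *Top2a* (257 of 1304) held 6.21% *Myl2* and 7.46% *Myl3*, against 5.56% and 6.66% in the rest. At day 6 such cells (195 of 502) held 2.17% and 5.48%, against 2.61% and 7.65%.

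The *Myl2* share moved in opposite directions with the *Myl7* level at the 2 days. At day 6 *Myl2* held 0.181% in cells with *Myl7* from 2000 to 8000 CPM, 2.60% from 8000 to 16000 CPM and 3.30% at 16000 CPM or more, in 242, 161 and 99 cells. At day 11 it held 21.5%, 7.59% and 2.09% in 315, 398 and 591 cells. Day 11 cells at the lower end of the *Myl7* range thus had the higher *Myl2* share. *Myl3* went the same way, with 1.68%, 6.42% and 9.49% at day 6 and 22.6%, 8.80% and 3.22% at day 11. Part of each share is arithmetic, as *Myl7* is in the denominator, so the levels are given too. *Myl2* was at 14.7, 569.7 and 1272 CPM at day 6 and at 4146, 2114 and 976 CPM at day 11.

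A *Myl7* limit also left *Myl2*-rich cells outside the set. At day 11, 24 cells held *Myl2* at 1000 CPM or more with *Myl7* below 2000 CPM, and their *Myl7* ranged from 426 to 1994 CPM with a median of 1485 CPM. Over these cells *Myl3* made up 38.8% and *Myl2* 31.9% of the light chains, with *Myl4* at 13.0% and *Myl7* at 7.90%. *Myh7* was at 4199 CPM and *Tnnt2* at 4573 CPM. Of the 24 cells, 22 were among the other cells, where they gave 79.0% of all *Myl2* and 78.2% of all *Myl3* UMIs. This group of cells was chosen after its values were seen.

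In the 175 *Myog* positive cells of day 11 the family stood at 6492 CPM and *Mylpf* led. *Mylpf* was at 3202 CPM (3146 to 3259), 49.3% of the family, *Myl4* at 1380.2 CPM, 21.3%, *Myl1* at 1042 CPM (1010 to 1074), 16.0%, and *Myl6* at 739 CPM, 11.4%. *Myl9* held 0.989% and *Myl7* 0.630%. This lead depends on how the set is drawn. With the 19 double cells added, *Mylpf* and *Myl1* together held 36.6% in place of 65.4%. With cardiac cells taken by non-myosin markers first, 108 *Myog* positive cells were left, *Mylpf* and *Myl1* held 7.09% and *Myl6* led. Within the regulatory chains of the 175 cells *Mylpf* made up 96.5%, and within the essential chains *Myl4* made up 43.5%, *Myl1* 32.8% and *Myl6* 23.3%. In summed UMIs *Myl4* was thus the leading essential chain in both muscle sets. Counted per cell, *Myl6* was the most abundant member in 118 of the 175 *Myog* positive cells and *Myl4* in 4. *Myl7* was at 40.9 CPM (34.8 to 47.8) and *Myl2* at 11.5 CPM, levels near those of endothelial and neural cells given further on.

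Against the other cells, 8 members passed the filter on level, 4 were at least 2-fold higher and 2 lower, beside 5.01% of 8734 genes higher and 17.6% lower. *Myl1* was 1503-fold higher (1114 to 2079.9), *Mylpf* 550.3-fold (496 to 613), *Myl4* 34.9-fold (33.3 to 36.6) and *Myl9* 2.91-fold (2.53 to 3.33). *Myl3* was 4.08-fold lower (3.07 to 5.54) and *Myl2* 3.39-fold lower (2.53 to 4.67). Both of these last ratios rest on the 22 *Myl2*-rich cells in the other set. Without them the other cells held *Myl2* at 8.23 CPM and *Myl3* at 11.0 CPM, against 11.5 and 12.3 CPM in *Myog* positive cells, and the ratios were 1.40 (1.007 to 1.90) and 1.12 (0.816 to 1.498). The median log2 ratio of all genes was −0.32 in this comparison.

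The skeletal profile belonged to a minority of the *Myog* positive cells. *Mylpf* led the family in 42 cells and *Myl6* in 118 of the 175. In the 66 cells with a UMI of *Myh3*, the embryonic skeletal heavy chain, *Mylpf* was at 8056 CPM, *Myl4* at 3439, *Myl1* at 2578 and *Myl6* at 1158 CPM. In the 109 cells without *Myh3*, *Mylpf* was at 27.1 CPM, *Myl4* at 33.4, *Myl1* at 36.8 and *Myl6* at 465 CPM. *Myl6* accordingly made up 7.51% of the family in the former and 70.5% in the latter. *Myl9* was higher with *Myh3* as well, at 122 CPM (105 to 140) against 26.7 CPM (20.5 to 34.1), while *Myl7* was at 36.2 and 44.0 CPM. Median depth was 22762 UMIs in cells with *Myh3* and 19221 UMIs without. Dividing by *Myog* itself gave a similar picture, with *Mylpf* at 4152 CPM in 123 cells with at least 2 *Myog* UMIs and 48.6 CPM in 52 cells with 1 UMI, at median depths of 23312 and 14467 UMIs.

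**Figure D4:**
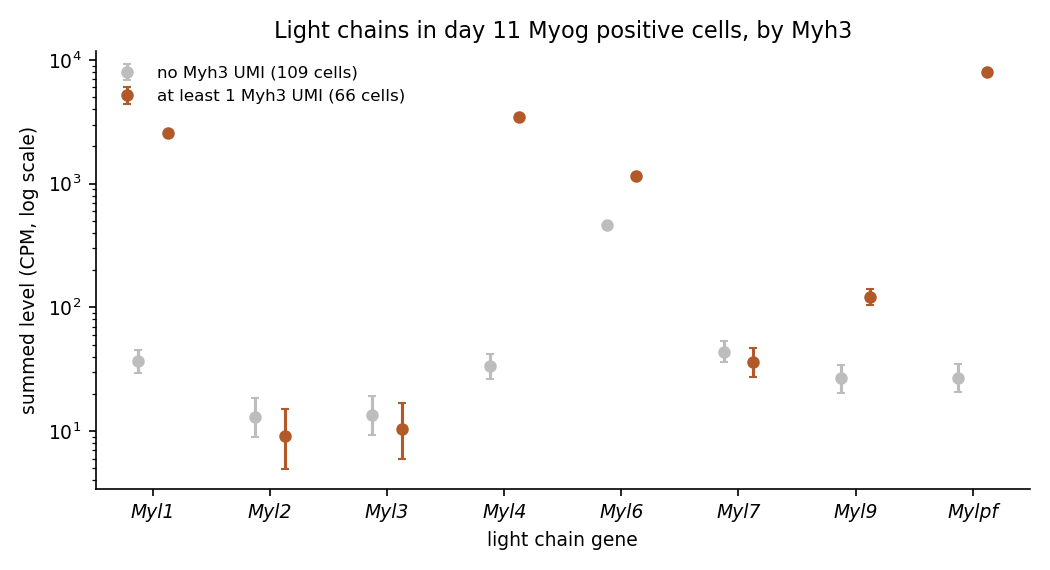
Summed level (CPM, log scale) of each light chain in day 11 *Myog* positive cells with at least 1 *Myh3* UMI (brown, 66 cells) and with none (gray, 109 cells), with exact 95% Poisson intervals. *Mylpf*, *Myl4* and *Myl1* lie between 2578 and 8056 CPM with *Myh3* and between 27.1 and 36.8 CPM without, and *Myl2*, *Myl3* and *Myl7* have overlapping intervals.

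In *Acta2* positive cells *Myl6* held 89.2%, 91.5%, 69.1% and 73.5% of the family on the 4 days. *Myl7* held 7.0%, 2.98%, 16.9% and 9.48%, and was next in order except at day 5, where *Myl9* with 699 UMIs was level with *Myl7* with 680. *Myl9* held 0.394%, 3.06%, 1.07% and 5.47%, and in level 1.70 CPM (1.21 to 2.33), 26.6 CPM (24.7 to 28.6), 9.90 CPM (9.10 to 10.8) and 51.6 CPM (48.5 to 54.8). *Myl4* was prominent at day 6, with 106 CPM and 11.5%, against 57.4 CPM and 6.10% at day 11. At day 11, 6 members passed the filter on level against the other cells, *Myl9* was 2.34-fold higher (2.16 to 2.54) and *Myl3* 2.02-fold lower (1.84 to 2.23), beside 1.12% of 8607 genes higher and 3.47% lower (4.59% together). The remaining 4 lay between 0.532-fold and 1.71-fold. The *Myl3* value again rests on the *Myl2*-rich cells. Without the 24 of them, *Myl3* was at 17.5 CPM in *Acta2* positive and 11.0 CPM in other cells, a ratio of 1.59 (1.39 to 1.81), and that of *Myl2* was 1.34 (1.14 to 1.57).

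A count of 1 *Acta2* UMI is a weak limit at this depth, so *Myl9* was followed over the *Acta2* level. At day 11 *Myl9* was at 22.1 CPM with no *Acta2* UMI, 31.1 CPM below 100 CPM of *Acta2*, 39.6 CPM from 100 to 500, 72.6 CPM from 500 to 2000 and 260.3 CPM (228 to 296) at 2000 CPM or more, where there were 66 cells. At day 6 the levels over the same bins were 3.78, 3.98, 9.47, 33.5 and 78.3 CPM. At day 5 they were 6.40, 14.1, 77.8 and 301 CPM (245 to 366), the last from 16 cells at 500 to 2000 CPM, and at day 4 1.39, 1.5 and 6.36 CPM. *Myl9* was therefore higher in each bin of more *Acta2* on each day, although neighboring intervals overlapped at the low end on days 4 and 6. *Tagln*, an actin-binding protein of smooth muscle, went with it, from 4.13 to 695 CPM over the day 11 bins, and *Myh11* from 0.629 to 22.4 CPM. *Myl7* was at 52.1 CPM in the first and 294 CPM in the last day 11 bin, and at 35.6 and 826 CPM in those of day 6. The bins also differ in depth, as 1 UMI is a higher CPM in a shallower cell. At day 4 the median depth was 23935 UMIs with no *Acta2* UMI and 28890 UMIs below 100 CPM of *Acta2*. The parts of depth and of cells near the *Myl7* limit in these values were not tested.

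**Figure D5:**
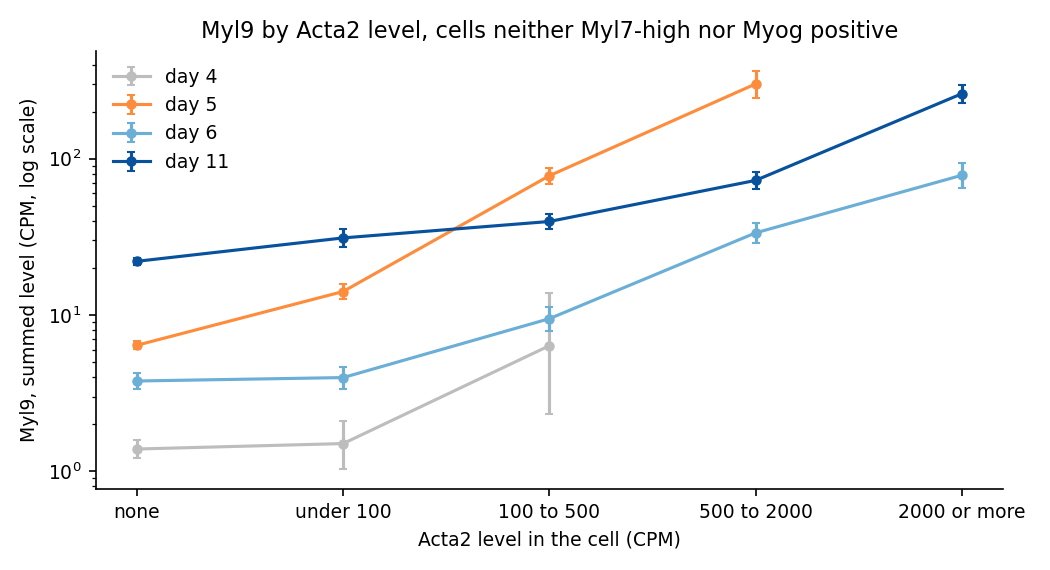
Summed *Myl9* level (CPM, log scale) against the *Acta2* level of the cell in bins (CPM), among cells that are neither *Myl7*-high nor *Myog* positive, 1 line a day, with exact 95% Poisson intervals. The day 11 line goes from 22.1 to 260.3 CPM and the day 5 line from 6.40 to 301 CPM.

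In the other cells *Myl6* was the family's main transcript throughout, with 381 CPM (82.7%) at day 4, 657 CPM (92.6%) at day 5, 483 CPM (87.0%) at day 6 and 615 CPM (74.6%) at day 11. At day 11 *Myl7* followed at 52.1 CPM, *Myl3* at 50.03, *Myl4* at 39.6, *Myl2* at 39.1 and *Myl9* at 22.1 CPM. Without the 22 *Myl2*-rich cells, *Myl6* was at 84.1% and the others at 44.9, 11.0, 27.7, 8.23 and 17.8 CPM in the same order. Droplet libraries carry free RNA, so levels in cells that should lack sarcomeric chains are given beside these. Among day 11 cells that were neither *Myl7*-high nor *Myog* positive, 454 cells with at least 3 of 8 endothelium markers held *Myl7* at 50.8 CPM, *Myl4* at 41.7, *Myl9* at 11.0, *Myl3* at 10.9, *Myl2* at 8.46 and *Mylpf* at 3.24 CPM. In 1052 cells with at least 3 of 8 neural markers the same genes were at 44.6, 24.9, 9.44, 12.2, 9.10 and 13.9 CPM. These cells are part of the *Acta2* positive and other sets. The sarcomeric levels in other cells, without the *Myl2*-rich cells, were of the size found in these endothelial and neural cells, and no expression is read from them. The part of free RNA in them was not tested. *Myl6* differed between these cells, at 1024 CPM (1004 to 1044) in the endothelial and 523 CPM (512 to 535) in the neural cells.

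Before the heart genes appeared, *Mylpf* had a separate location. At days 4 and 5 its level was concentrated in cells with transcripts of the pluripotency genes. The 767 day 4 cells with a *Nanog* UMI held *Mylpf* at 103 CPM (99.3 to 107), against 3.91 CPM (3.61 to 4.22) in the other 5788 cells. At day 5 the values were 278 CPM (268 to 288) in 304 cells and 4.82 CPM (4.51 to 5.14) in 6153 cells. At day 6, with *Zfp42* in place of *Nanog*, 58 cells with a *Zfp42* UMI held 96.6 CPM (84.7 to 110) against 6.37 CPM in the rest. *Mylpf* was no longer mainly in such cells at day 6, as 535 of its 1178 UMIs came from *Myl7*-high cells, at 41.0 CPM. *Mylpf* reached 200 CPM or more in 127 cells at day 4 and 141 cells at day 5, where it made up 62.4% and 60.6% of the family. In the day 4 cells of that kind *Zfp42* was at 436 CPM and *Pou5f1* at 441 CPM, with *Myog* and *Tnnc2*, the fast skeletal troponin C, at 0 UMIs, with an exact interval up to 0.915 CPM. These cells were chosen by their *Mylpf* level, after the *Mylpf* values were seen, so their large *Mylpf* share follows in part from the limit. Across all day 4 cells the genes whose pattern was most like that of *Mylpf* were *Tdh* (Pearson r = 0.76), *Zfp42* (0.75) and *Klf2* (0.74), and at day 5 they were *Klf2* (0.81), *Zfp42* (0.80) and *Tdh* (0.79).

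The other members had patterns of their own at the early days. *Myl3* was at 12.6 CPM (11.0 to 14.4) in 500 day 4 cells with at least 3 of 9 endoderm markers and at 15.1 CPM (13.4 to 16.8) in 633 such cells of day 5, against 1.38 and 2.37 CPM in all cells. The genes most like *Myl3* at day 4 were *Sox17* (0.44), *Cldn6* (0.43) and *Cldn7* (0.41), the first an endoderm transcription factor and the others epithelial claudins. For *Myl7* at day 4 they were *Asb4* (0.52), *Kdr* (0.41) and *S100a10* (0.40), of which *Kdr* is the VEGF receptor of early vascular and cardiac mesoderm. For *Myl9* at day 5 they were *Actc1* (0.58), *Tagln* (0.54) and *Acta1* (0.44), all genes of the contractile cytoskeleton. *Myl6* was most like *Krt18* (0.36) at day 4 and *Anxa2* (0.47) at day 5.

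At day 11 the same measure was taken over 7850 cells and 13731 genes found in at least 1% of them. *Myl7* was most like *Csrp3*, *Pgam2* and *Tnnt2* (each 0.92), *Myl4* like *Tnnc1*, *Cryab* and *Tnnt2* (each 0.94), and *Myl9* like *Cryab* (0.90), *Tnnc1* and *Csrp3* (both 0.89), all genes of striated muscle. *Myl2* was most like *Pln* (0.78), *Myh7* (0.77) and *Hopx* (0.63), and *Myl3* like *Myh7* (0.81), *Tnni3* and *Actn2* (both 0.73). *Mylpf* was most like *Myh3*, *Tnnc2* (both 0.86) and *Il17b* (0.81), and *Myl1* like the same *Myh3* (0.67), *Tnnc2* (0.66) and *Il17b* (0.65). *Myl6* was most like *Cryab*, *Tnnt2* (both 0.53) and *Tnnc1* (0.52), with lower coefficients than the rest. Among the members, *Myl4* and *Myl7* had r = 0.94, *Myl4* and *Myl9* 0.89, *Myl2* and *Myl3* 0.78, and *Myl1* and *Mylpf* 0.65. *Myl3* had 0.63 with *Myl4* and 0.61 with *Myl7*, so the members do not fall into separate groups by these values. *Myl1* had 0.40 with *Myl4* against 0.15 for *Mylpf* with *Myl4*. These coefficients describe 1 library, whose cells share a depth distribution and free RNA, and at day 6, with few skeletal cells, *Myl1* was most like *Lrrc10* (0.68) and *Mylpf* like *Hspb1* (0.51).

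Each myosin neck pairs an essential with a regulatory chain, so the summed essential members (*Myl1*, *Myl3*, *Myl4*, *Myl6*) were set against the summed regulatory members (*Myl2*, *Myl7*, *Myl9*, *Mylpf*). The ratio of transcripts was 5.57, 14.5, 1.14 and 0.633 on days 4, 5, 6 and 11. With the non-muscle regulatory chains *Myl12a* and *Myl12b* and with *Myl6b* and *Myl10* added, it was 1.11, 1.5, 0.863 and 0.607. The excess of essential chains among the 8 genes at days 4 and 5 was thus smaller once these genes were counted. A ratio of 1.5 remained at day 5. In *Myl7*-high cells the ratio was 0.689 at day 6 and 0.539 at day 11, in *Myog* positive cells 0.956, and in other cells of day 11 5.92, or 1.97 with 12 genes.

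Of 4 other light chains (*Myl6b*, *Myl10*, *Myl12a*, *Myl12b*), 2 passed the filter on level and 0 differed by 2-fold in any of the 6 comparisons. Over all genes that passed, 4.59% to 31.7% did. With 2 genes a count of 0 is near that share, and no result about the list is read from it. *Myl12a* lay between 141 and 281 CPM in the *Myl7*-high, *Myog* positive and other sets of days 6 and 11, and *Myl12b* between 55.5 and 127 CPM. Reads of *Myl12a* and *Myl12b* can be hard to assign, as these genes are near-identical copies, and how such reads were counted is not given in the sources used here. Of 13 myosin heavy chains, 5 passed the filter between *Myl7*-high and other day 11 cells. Of these, 3 were at least 2-fold higher and 1 lower, beside 11.9% and 19.9% of all genes. In *Myog* positive cells 7 passed, 4 were higher and 2 lower, beside 5.01% and 17.6%. *Myh6*, the atrial heavy chain, was at 2522 CPM and *Myh7* at 1043 CPM in day 11 *Myl7*-high cells, against 484 and 504 CPM at day 6. *Myh7* was thus slightly above *Myh6* at day 6 and *Myh6* the higher at day 11. *Myh3* was at 531 CPM and *Myh8*, the perinatal skeletal chain, at 117 CPM in *Myog* positive cells. The non-muscle heavy chain *Myh9* was 6.23-fold lower in *Myl7*-high than in other cells, at 7.92 against 49.3 CPM.

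Of 12 kinase and phosphatase genes that act on the regulatory chains, 9 passed the filter on level in both muscle comparisons. In *Myl7*-high cells 2 were at least 2-fold higher and 1 lower, beside 11.9% and 19.9% of all genes. In *Myog* positive cells 1 was higher and 0 lower, beside 5.01% and 17.6%. No result about the list as a whole is read from counts this small. *Mylk3*, the cardiac myosin light chain kinase, was at 72.8 CPM in *Myl7*-high and 0.741 CPM in other cells of day 11, a 98.2-fold difference (73.3 to 135). *Mylk4* was at 116 CPM in *Myog* positive and 0.113 CPM in other cells. *Mylk*, the smooth muscle kinase, went from 7.74 CPM to 29.2 CPM (19.1 to 42.8) over the *Acta2* bins of day 11. *Rock1* (205 CPM), *Ppp1r12a* (124 CPM) and *Ppp1cb* (118 CPM), a kinase of the phosphatase and 2 phosphatase subunits, were the other genes of this list over 100 CPM in day 11 *Myl7*-high cells, and none of them differed by 2-fold from the other cells. Between *Acta2* positive and other cells, 4 of 13 heavy chains and 8 of 12 kinase and phosphatase genes passed the filter on level. Of these, 0 differed by 2-fold, beside 4.59% of all genes. *Myh11* was below the filter, at 2.32 against 0.629 CPM, a ratio of 3.70 (2.37 to 5.79).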

How the data were processed

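Single-cell RNA was measured in 1 library a day. The deposited matrices hold raw UMI counts per gene and cell, which the authors made with Cell Ranger (3.1.0 in the submitters' notes, 3.1.0 in the file headers of days 4 to 6 and 6.0.1 in that of day 11) on mm10. Barcodes had already been called as cells. Cells were kept with over 200 genes, under 20% mitochondrial and over 5% ribosomal UMIs and depth within 3 scaled MADs. The 8% with the highest simulated doublet score were then removed. The kinds of filter, the 200 genes and the 8% follow the study, with a substitute for its doublet caller. The paper states that its mitochondrial, ribosomal and UMI cutoffs were chosen by hand for each day. The fixed limits used here are therefore not those of the study. UMIs were summed over cells, with Python 3.11.15, NumPy 2.4.6, SciPy 1.17.1, pandas 2.3.3 and Matplotlib 3.10.9, tested on simulated data. With 1 library a group there is no test, and a gene is counted at 2-fold if it holds 10 CPM in either group. Named genes were the 8 members, the set-defining genes, the 3 genes with the highest correlation (log of 1 plus UMIs per 10000) and pathway genes at 100 CPM or more. Others, such as *Shox2*, *Pln*, *Nanog* and *Zfp42*, were chosen after their values were seen. Members and lists were chosen with earlier results of these data known. Gene positions are from GENCODE, and promoter sequences from RefSeq, ending before the outermost of the RefSeq and nearby GENCODE starts. Alternatives are given in the closing section.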

Additional observations from a re-analysis of the deposited data

Results flagged for a closer look

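The difference in *Myl7* between *Acta2* positive and other cells changed direction over the days. At day 4 *Myl7* was at 30.3 CPM in *Acta2* positive and 53.0 CPM in other cells, a ratio of 0.572 (0.529 to 0.618). At day 5 the levels were 25.9 and 16.8 CPM, a ratio of 1.54 (1.41 to 1.67). At day 6 they were 156 and 35.6 CPM, a ratio of 4.38 (4.199 to 4.57), and at day 11 89.3 and 52.1 CPM, a ratio of 1.71 (1.62 to 1.81). It drew attention because day 4 lies on the opposite side of 1 from the later days with intervals that exclude 1. The intervals cover counting error only, and the difference between days was not tested. Both sets exclude cells with *Myl7* at 2000 CPM or more, and no cell of day 4 or day 5 reached that level.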

How the results depend on the processing

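No paired analysis was possible because each day is 1 library with no replicate. As reported, *Myl7* held 45.1% of the family in all day 11 cells, *Myl2* 5.72% in *Myl7*-high, *Mylpf* and *Myl1* 65.4% in *Myog* positive, *Myl9* 5.47% in *Acta2* positive and *Myl6* 74.6% in other cells. Leaving aside alternatives that gave the identical value, 0 of 5, 3 of 11, 4 of 11, 4 of 12 and 4 of 12 in that order stayed within the counting interval. With doublets left in, *Myl7* was 45.2%, *Mylpf* and *Myl1* 64.3% and *Myl9* 5.97%. With every cell over 200 genes, *Myl7* was 46.2%, *Myl2* 5.56% and *Mylpf* and *Myl1* 63.8%. A *Myl7* limit of 1000 CPM gave *Myl2* 5.87% and *Myl6* 82.9%. A limit of 5000 CPM gave *Myl2* 4.51%, *Myl9* 5.85% and *Myl6* 47.0%. Cells thinned to 5000 UMIs gave *Myl7* 43.6%, *Myl2* 5.47%, *Myl9* 6.45% and *Myl6* 73.6%. The mean of each cell's share, in which every cell counts alike, gave *Myl7* 13.5%, *Myl2* 5.58%, *Mylpf* and *Myl1* 25.4%, *Myl9* 4.61% and *Myl6* 82.8%. A family of 12 light chains gave *Myl7* 43.9%, *Mylpf* and *Myl1* 62.4%, *Myl9* 4.36% and *Myl6* 57.8%. Without *Myl7* in the family, *Myl2* was 11.3%, *Myl9* 6.05% and *Myl6* 79.6%. Cells taken first by non-myosin cardiomyocyte markers gave *Myl2* 5.95%, *Myl6* 81.4% and *Mylpf* and *Myl1* 7.09% in 108 *Myog* positive cells. The leading member of those 108 cells was then *Myl6*, as that rule also took out the cells that hold most *Mylpf*. Adding the 19 cells positive for both put *Mylpf* and *Myl1* at 36.6%. *Myog* at 2 UMIs or more gave 66.9%, and *Acta2* at 5 UMIs or more gave *Myl9* 7.42%. Chosen after seeing the data, *Acta2* at 2000 CPM or more gave *Myl9* 10.6%, adding the *Myl2*-rich cells gave *Myl2* 5.91%, and removing them gave *Myl6* 84.1%. Removing them also turned the ratios over other cells of *Myl2* to 1.40 and *Myl3* to 1.12 in *Myog* positive cells, and to 1.34 and 1.59 in *Acta2* positive cells. The members past 2-fold numbered 3 instead of 1 from day 4 to day 5 without the filter on level, and in *Acta2* positive cells 1 instead of 2 with median-of-ratios scaling and 0 with 10 CPM added to both groups. The cause of these moves was not tested. With 1 library a day, differences between days and between libraries cannot be told apart. Levels below about 10 CPM rest on few UMIs a cell, and sarcomeric chains in non-muscle cells cannot be separated from free RNA.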

Other observations

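Some values of the family belong to no set comparison. In day 6 *Myl7*-high cells *Mylpf* was at 10.4 CPM (7.97 to 13.4) with *Myl7* from 2000 to 8000 CPM, 45.2 CPM (39.1 to 52.1) from 8000 to 16000 CPM and 96.6 CPM (85.6 to 109) at 16000 CPM or more. In day 11 *Myl7*-high cells the same bands held 7.57, 9.15 and 14.2 CPM. *Myl1* was at 7.18, 90.0 and 194 CPM over the bands of day 6 and at 26.7, 72.4 and 124 CPM over those of day 11. *Myl7*-high cells without an *Acta2* UMI numbered 14 of 502 at day 6, where *Myl7* made up 61.7% and *Myl6* 20.4% of the family, and 387 of 1304 at day 11.

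In 35 day 6 cells with *Mylpf* at 200 CPM or more, chosen after the values were seen, 85.7% held a *Myl7* UMI, and *Myl7* made up 49.1% of the light chains. *Zfp42* was found in 28.6% of these cells, against 100% of the 127 such cells of day 4 and 98.6% of the 141 of day 5.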
